A study of Homo sapiens with 36 samples.

Results

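The genes described here are 36 transcripts of the integrated stress response and the unfolded protein response, taken from a table of 15186 genes by matching a fixed list of gene symbols to its rows. The list was chosen with earlier results of these data known, so its counts beside the shares of all genes are a description and no test. The genes fall into 2 branches that are reported apart. The ATF4 amino-acid branch has 20 genes and the ER chaperone branch has 16 genes, and all 36 passed the filter on low values that left 15179 genes in the tests. They were measured by RNA sequencing in U2OS cells, a human osteosarcoma line, that stably carried the alpha form of the glucocorticoid receptor. Each culture received a pair of siRNAs. The 6 conditions were siNSsiNS (nonspecific siRNA in both places, the control), siHic5siNS (against Hic-5, encoded by TGFB1I1), siCHD9siNS (against the chromatin remodeller CHD9), siBRMsiNS (against BRM, encoded by SMARCA2), and the combinations siCHD9siHic5 and siBRMsiHic5. From 48 h after transfection the cells were kept for 8 h in 100 nM dexamethasone (dex), a synthetic glucocorticoid, or in the same amount of ethanol (vehicle). There were 3 biological replicates on different days in each of the 12 groups, 36 libraries in all. All groups shared the receptor transgene, the low-glucose medium and the transfection, and whether the line is 1 clone is not given in the sources used here. No group received a drug that causes ER stress and none was starved of an amino acid, so the comparisons give the transcripts' levels after siRNA and hormone.

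In the integrated stress response, kinases such as PERK (EIF2AK3), which senses unfolded protein in the endoplasmic reticulum (ER), and GCN2 (EIF2AK4), which senses uncharged tRNA, phosphorylate the translation factor eIF2. Most translation then slows while the mRNA of the transcription factor ATF4 is translated more, and ATF4 induces genes for amino acid synthesis, amino acid import, tRNA charging and feedback control. The other 2 sensors of the unfolded protein response are IRE1 (ERN1), which splices the XBP1 mRNA, and ATF6, which is cut to release a transcription factor, and these act mainly on ER chaperones and on ER-associated degradation. The table counts transcripts per gene, so it holds neither eIF2 phosphorylation nor ATF4 protein, and it does not separate the spliced XBP1 mRNA from the unspliced one.

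The promoters of both branches carry known sequence elements, and those of a few members are printed because the results below turn on these genes. RefSeq windows of 300 bases (250 before and 50 after each annotated start, GRCh38.p14) were found for 34 of the 36 members, all but PSPH and SHMT2. The motifs searched were 3, each on both strands, and their matches do not overlap in the sequences shown. The first was the core of the C/EBP-ATF response element (TGATGNAA), the element bound by ATF4 with a C/EBP partner. It stood in 5 of 18 ATF4-branch genes, or 27.8%, in 1 of 16 ER-branch genes, and in 4.46% of all 27305 genes with a window. The others were the ER stress response element (CCAAT, 9 bases of any kind, then CCACG) and the unfolded protein response element (TGACGTGG). The ER stress response element stood in 5 of 16 ER-branch genes, or 31.2%, in 0 of 18 ATF4-branch genes and in 0.0916% of all genes. The unfolded protein response element stood in 1 of 16 ER-branch genes (HYOU1) and in 0.927% of all genes. Many of these elements were defined on promoters of these same genes, so the shares describe the windows and test nothing. A match is a run of letters and not a measured site, and a window without one may hold variants of the element.

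The 250 bases before the start are given 5′ to 3′ on the gene's strand, with the motif in capitals, for 3 ATF4-branch genes that rose below and 3 ER-branch genes that went different ways. ASNS (chr7:97872409-97872658, minus strand), CHAC1 (chr15:40953221-40953470, plus strand), CEBPG (chr19:33373863-33374112, plus strand) and HERPUD1 (chr16:56931892-56932141, plus strand) hold the C/EBP-ATF core, in CHAC1 and HERPUD1 on the opposite strand. XBP1 (chr22:28800570-28800819, minus strand) holds 1 ER stress response element, and HSP90B1 (chr12:103930160-103930409, plus strand) holds 2 of them on opposite strands.
ASNS: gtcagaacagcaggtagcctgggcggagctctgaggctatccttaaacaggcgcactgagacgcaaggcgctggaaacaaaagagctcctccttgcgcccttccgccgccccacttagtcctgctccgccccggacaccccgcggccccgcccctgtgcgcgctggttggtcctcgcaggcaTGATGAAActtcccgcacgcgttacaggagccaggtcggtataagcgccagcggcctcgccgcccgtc
CHAC1: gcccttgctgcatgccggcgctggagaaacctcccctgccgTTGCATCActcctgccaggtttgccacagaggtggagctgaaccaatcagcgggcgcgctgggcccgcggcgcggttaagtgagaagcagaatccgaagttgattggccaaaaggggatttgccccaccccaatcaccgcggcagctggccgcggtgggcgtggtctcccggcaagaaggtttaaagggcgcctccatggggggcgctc
CEBPG: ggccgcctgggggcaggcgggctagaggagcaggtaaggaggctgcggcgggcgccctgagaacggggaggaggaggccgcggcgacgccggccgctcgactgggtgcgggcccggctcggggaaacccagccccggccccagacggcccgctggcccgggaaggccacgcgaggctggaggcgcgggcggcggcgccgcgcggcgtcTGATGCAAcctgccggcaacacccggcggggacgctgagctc
HERPUD1: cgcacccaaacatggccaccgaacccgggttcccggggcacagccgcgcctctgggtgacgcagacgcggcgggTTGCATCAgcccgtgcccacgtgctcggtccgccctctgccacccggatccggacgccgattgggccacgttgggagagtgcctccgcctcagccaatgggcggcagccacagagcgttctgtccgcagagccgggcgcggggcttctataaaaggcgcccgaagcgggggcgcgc
XBP1: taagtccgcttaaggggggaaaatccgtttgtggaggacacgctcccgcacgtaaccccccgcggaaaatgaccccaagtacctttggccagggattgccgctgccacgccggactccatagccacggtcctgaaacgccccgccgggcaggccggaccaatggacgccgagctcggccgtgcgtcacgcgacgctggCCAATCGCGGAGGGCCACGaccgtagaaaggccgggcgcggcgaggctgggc
HSP90B1: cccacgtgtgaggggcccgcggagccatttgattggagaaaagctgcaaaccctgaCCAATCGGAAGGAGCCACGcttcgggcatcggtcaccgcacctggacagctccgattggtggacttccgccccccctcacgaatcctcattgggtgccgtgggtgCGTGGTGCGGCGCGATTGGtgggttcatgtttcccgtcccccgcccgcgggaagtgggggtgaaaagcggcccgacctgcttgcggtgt

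Levels are given as CPM, a gene's counts relative to the size of its library after upper-quartile scaling, in the order replicate 1, 2 and 3. A gene was called where edgeR's quasi-likelihood test gave an adjusted p under 0.05 (Benjamini-Hochberg over 15179 genes), and ± marks 1 SE on the log2 scale. The libraries held 27442282 to 47148257 counts. TGFB1I1 was at 24.8%, 26.2% and 18.3% of its siNSsiNS vehicle level with siHic5siNS, siCHD9siHic5 and siBRMsiHic5, and SMARCA2 was at 28.9% and 24.9% with siBRMsiNS and siBRMsiHic5. CHD9 was at 67.9% with siCHD9siNS but at 138.9% in the libraries labelled siCHD9siHic5, which goes against that label, and at 51.1% with siBRMsiHic5. Values of the libraries labelled siCHD9siHic5 are therefore given under their label and with no effect assigned to CHD9. It was also at 76.9% with siHic5siNS and 83.5% with siBRMsiNS, neither called. In dex, CHD9 was at 85.5% of its siNSsiNS level with siCHD9siNS and was not called (adjusted p = 0.412). It was lower there in conditions not aimed at it: 71.3% with siHic5siNS (0.0246), 70.4% with siBRMsiNS (0.064, not called) and 61.2% with siBRMsiHic5 (0.0025). In the libraries labelled siCHD9siHic5 it was at 131.7% in dex (0.067, not called). NR3C1, the glucocorticoid receptor gene, was at 92.6% to 148% of its siNSsiNS level in vehicle. The highest value, with siHic5siNS, was called (adjusted p = 0.00264), and in dex NR3C1 was at 119.5% with siHic5siNS and not called (0.151). Of the mesenchymal and osteoblast markers 6 of 7 were listed, the lowest being RUNX2 at 13.01 to 63.7 CPM. Markers of other cell types were low but not absent: of the 3 epithelial markers listed CDH1 stayed at or under 1.90 CPM and EPCAM at or under 4.83 CPM, but CLDN4 was at 8.50 to 55.8 CPM, within the range of RUNX2. The endothelial markers CDH5, PECAM1 and VWF reached 1.82, 4.31 and 9.04 CPM, and LAPTM5, the 1 leukocyte marker listed, was at 2.63 to 16.5 CPM. All comparisons with siNSsiNS share the same control libraries, so their values are set side by side and are not independent of each other. Differences between 2 siRNA conditions were tested only for the combinations against siHic5siNS. RNA28S5, a ribosomal RNA gene, took 0.324% to 0.959% of the counts in 25 libraries, among them all libraries of the 2 CHD9-labelled conditions, 1.92% in siBRMsiNS dex replicate 2, and 3.44% to 7.51% in the other 10, which are the remaining replicates 2 and 3 of the siBRM conditions, replicate 3 of siHic5siNS in vehicle and dex, and replicate 3 of siNSsiNS in vehicle. Its part in the results was not tested. In bulk RNA, fewer cells with a transcript and less of it per cell cannot be told apart.

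At least 12 of the 20 genes of the ATF4 branch were called in 4 of the 5 siRNA conditions against siNSsiNS in vehicle, and nearly every called gene was higher. With siHic5siNS 13 of its 20 genes were called, each of them higher, when 25.9% of all tested genes rose and 27.2% fell. With siCHD9siNS 15 genes were called, each higher, against 15.7% of all genes that rose and 16.5% that fell. In the libraries labelled siCHD9siHic5, 15 rose and 1 fell (all genes, 23.7% and 28.9%), and with siBRMsiHic5 10 rose and 2 fell (all genes, 24.3% and 24.6%). The median log2 change of the branch was 0.75, 0.95, 1.02 and 0.46 in these 4 conditions, beside -0.01, 0.02, -0.05 and -0.01 for all genes. The ER branch had 6 genes higher and 3 lower with siHic5siNS, 2 and 2 with siCHD9siNS, 4 and 5 in the libraries labelled siCHD9siHic5, and 8 and 1 with siBRMsiHic5, with median log2 changes of 0.11, -0.02, -0.08 and 0.44. With siCHD9siNS and in the libraries labelled siCHD9siHic5 these ER-branch counts lay near the shares of all genes in both directions, and are no result about the branch. RNA28S5 took 5.46% of the counts in siNSsiNS vehicle replicate 3, 3.44% in siHic5siNS vehicle replicate 3, and 4.82% and 5.76% in siBRMsiHic5 vehicle replicates 2 and 3.

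**Figure D1:**
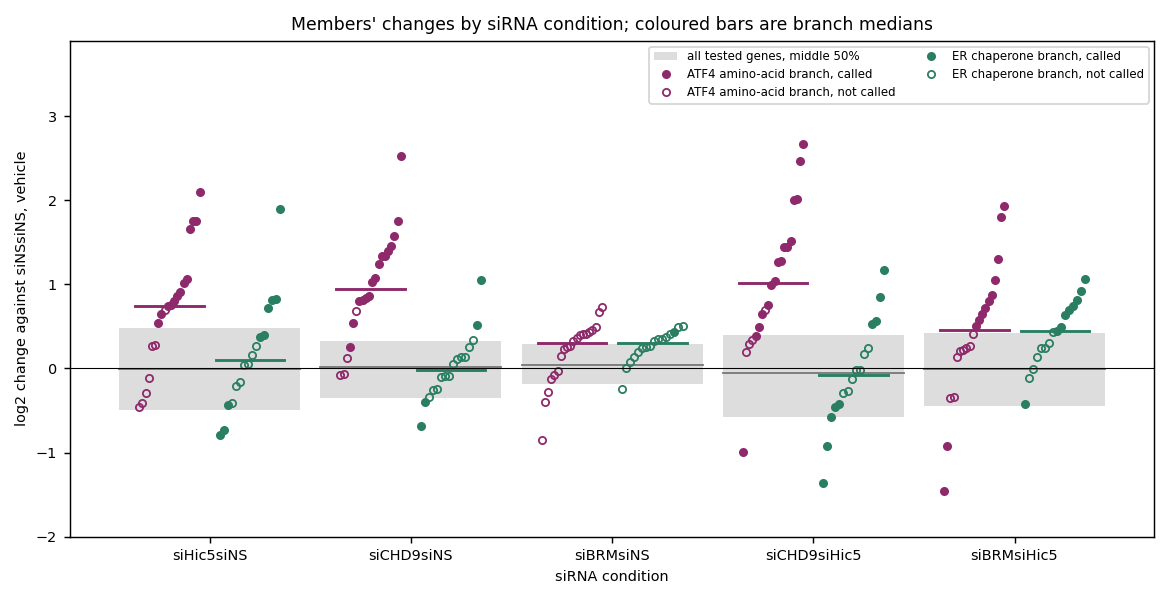
Log2 change of each member against siNSsiNS in vehicle (vertical axis) for the 5 siRNA conditions (horizontal axis), with the ATF4 branch in purple and the ER branch in green. Filled points were called, open points were not, coloured bars are branch medians and the grey band is the middle 50% of all tested genes. The ATF4-branch median lies above the grey band in each condition drawn, and the ER-branch median lies above it with siBRMsiNS and siBRMsiHic5.

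ATF4 itself was at 292, 248 and 370.3 CPM in the siNSsiNS vehicle libraries. It was at 481, 551 and 499 CPM with siHic5siNS, 973, 785 and 944 CPM with siCHD9siNS, 870.0, 919 and 818 CPM in the libraries labelled siCHD9siHic5 and 574, 477 and 453 CPM with siBRMsiHic5. In each of these 4 conditions every library lay above all 3 control libraries. The log2 changes were 0.75 ± 0.15 (adjusted p = 0.000112), 1.57 ± 0.15 (2.05e-08), 1.52 ± 0.15 (4.41e-09) and 0.72 ± 0.15 (0.000223), so that the ATF4 mRNA was 2.97-fold and 2.87-fold higher in the 2 CHD9-labelled conditions and 1.68-fold and 1.65-fold higher in the other 2.

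DDIT3 (CHOP), a transcription factor of prolonged stress, was at 5.65, 5.53 and 6.52 CPM in the control. It was at 18.7, 32.2 and 25.04 CPM with siHic5siNS, 22.7, 13.8 and 23.3 CPM with siCHD9siNS, 36.4, 48.9 and 27.8 CPM in the libraries labelled siCHD9siHic5 and 19.8, 12.4 and 29.5 CPM with siBRMsiHic5, again with no overlap with the control. Its log2 changes were 2.097, 1.75, 2.67 and 1.80, with SEs of 0.36 to 0.37 and adjusted p of 0.000486 or less. CEBPG, a C/EBP factor that pairs with ATF4, stood highest with siHic5siNS. It was at 44.5, 48.0 and 50.7 CPM in the control and at 92.3, 102 and 96.1 CPM with siHic5siNS, a log2 change of 1.02 ± 0.09 (adjusted p = 2.08e-09). With siBRMsiHic5 it was at 79.4, 71.9 and 73.6 CPM (0.65 ± 0.09, adjusted p = 4.05e-06), and in the 2 CHD9-labelled conditions it rose by 0.26 and 0.39. ATF5, a related factor, was called only in the libraries labelled siCHD9siHic5, where it fell by 0.99 on the log2 scale (adjusted p = 0.000222).

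**Figure D2:**
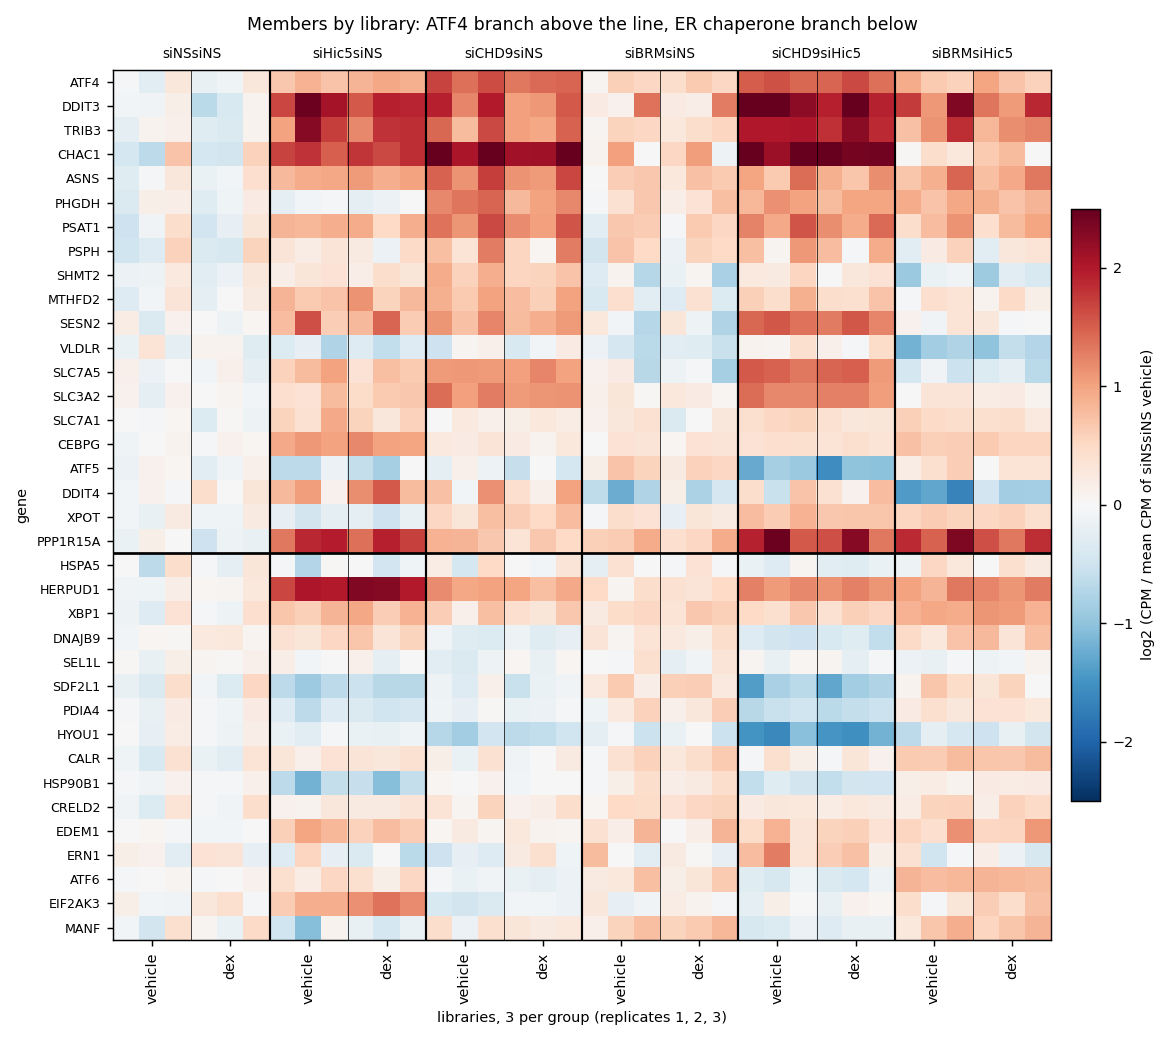
Each row is 1 of the 36 members and each column 1 of the 36 libraries, coloured by log2 of its CPM over the mean CPM of the siNSsiNS vehicle libraries (red higher, blue lower). Vehicle and dex columns of a condition look alike, DDIT3, TRIB3 and PPP1R15A are deep red in the libraries labelled siCHD9siHic5 and paler with siBRMsiNS, and HYOU1 is bluest in the libraries labelled siCHD9siHic5.

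The feedback genes PPP1R15A and TRIB3 rose in the same 4 conditions. PPP1R15A (GADD34), the phosphatase subunit that removes phosphate from eIF2, was at 29.9, 36.7 and 33.3 CPM in the control. It was at 83.6, 123 and 130.2 CPM with siHic5siNS, 126, 182 and 96.8 CPM in the libraries labelled siCHD9siHic5 and 121, 92.6 and 168 CPM with siBRMsiHic5, and so rose 3.37-fold, 4.06-fold and 3.82-fold. With siCHD9siNS it was at 60.6, 60.3 and 53.0 CPM (1.74-fold, adjusted p = 0.0116). TRIB3, a pseudokinase induced by ATF4, was at 17.6, 21.9 and 22.4 CPM in the control, 41.3, 99.8 and 68.5 CPM with siHic5siNS, 55.6, 35.96 and 64.8 CPM with siCHD9siNS, 82.4, 82.8 and 84.4 CPM in the libraries labelled siCHD9siHic5 and 34.2, 45.2 and 73.8 CPM with siBRMsiHic5. No library of these conditions overlapped the control. Its log2 changes were 1.76, 1.34, 2.01 and 1.31 in the order siHic5siNS, siCHD9siNS, siCHD9siHic5 and siBRMsiHic5 (adjusted p of 0.000421 or less).

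CHAC1, an enzyme that breaks down glutathione, was at 4.14, 3.57 and 9.24 CPM in the control and 33.6, 23.3 and 41.6 CPM with siCHD9siNS, a log2 change of 2.53 ± 0.34 (adjusted p = 4.95e-06). It was at 18.2, 19.8 and 15.9 CPM with siHic5siNS (1.66) and at 36.8, 24.8 and 32.7 CPM in the libraries labelled siCHD9siHic5 (2.47). With siBRMsiHic5 it was at 5.77, 7.61 and 6.82 CPM, inside the range of the control, with a log2 change of 0.25 ± 0.34 that was not called (adjusted p = 0.559). SESN2, a leucine-binding inhibitor of mTORC1, had the same split: log2 changes of 1.07, 1.03 and 1.45 were called, and 0.14 ± 0.25 with siBRMsiHic5 was not. DDIT4 (REDD1), another mTORC1 inhibitor, was at 127, 142 and 129 CPM in the control and 49.5, 54.0 and 41.7 CPM with siBRMsiHic5, where all 3 libraries lay below the control (fell by 1.45, adjusted p = 0.00038). With siHic5siNS it was at 231, 272 and 144 CPM, all above the control, but the log2 change of 0.70 ± 0.30 missed the threshold (adjusted p = 0.0527).

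Of the 6 genes for amino acid synthesis and one-carbon metabolism, ASNS and PSAT1 rose in the same 4 conditions as ATF4. ASNS, which makes asparagine, was at 43.6, 52.0 and 65.8 CPM in the control and at 94.7, 102 and 106 CPM with siHic5siNS, 149, 116 and 179 CPM with siCHD9siNS, 107, 84.3 and 141 CPM in the libraries labelled siCHD9siHic5 and 87.4, 99.1 and 148 CPM with siBRMsiHic5. These were log2 changes of 0.90, 1.46, 1.04 and 1.05 (SE 0.23 each, adjusted p of 0.00168 or less). PHGDH, the entry enzyme of serine synthesis, was at 83.0, 119 and 120.3 CPM in the control and 92.4, 103 and 104 CPM with siHic5siNS, where it was not called (-0.11 ± 0.16, adjusted p = 0.599). It was at 245, 273 and 295 CPM with siCHD9siNS (1.34 ± 0.17, adjusted p = 1.41e-06), 191, 236 and 217 CPM in the libraries labelled siCHD9siHic5 (1.00) and 205, 177 and 209 CPM with siBRMsiHic5 (0.87). PSAT1, the next enzyme of the path, rose by 0.86, 1.39, 1.27 and 0.81, while PSPH, the last one, was called in none of the 4 conditions, with log2 changes of 0.20 to 0.84 and SEs near 0.36. Of the mitochondrial folate enzymes, SHMT2 rose with siCHD9siNS (0.82, adjusted p = 0.00481), and MTHFD2 rose with siHic5siNS, siCHD9siNS and the libraries labelled siCHD9siHic5 (0.74, 0.86 and 0.65) and was not called with siBRMsiHic5 (0.26 ± 0.21).

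SLC7A5 and SLC3A2 encode the light and heavy chains of a transporter of large neutral amino acids. SLC7A5 was at 596, 489 and 543 CPM in the control, 808, 945 and 1087 CPM with siHic5siNS, 1135, 1158 and 1128 CPM with siCHD9siNS and 1567, 1514 and 1349 CPM in the libraries labelled siCHD9siHic5. All 9 of these libraries lay above the control, and the log2 changes were 0.80 ± 0.19, 1.07 ± 0.19 and 1.44 ± 0.19 (adjusted p = 0.000945, 0.00013 and 6.71e-07). With siBRMsiHic5 it was at 403, 508 and 376 CPM, which overlapped the control (-0.34 ± 0.19, adjusted p = 0.143). SLC3A2 was at 221, 175 and 219.6 CPM in the control, 539, 419 and 499 CPM with siCHD9siNS and 539.8, 471 and 469.9 CPM in the libraries labelled siCHD9siHic5, rises of 1.24 ± 0.12 (adjusted p = 2.89e-08) and 1.27 ± 0.12 (2.9e-09). Its change was 0.54 with siHic5siNS, which was called, and 0.22 ± 0.12 with siBRMsiHic5, which was not. SLC7A1, the importer of arginine and lysine, rose with siHic5siNS, siBRMsiHic5 and the libraries labelled siCHD9siHic5 (0.65, 0.51 and 0.50) and was not called with siCHD9siNS (0.13 ± 0.13). XPOT, which carries tRNA out of the nucleus, rose in the 2 CHD9-labelled conditions and with siBRMsiHic5 (0.54, 0.76 and 0.57) and had a log2 change of -0.29 ± 0.14 with siHic5siNS that was not called. VLDLR, a lipoprotein receptor, was called only with siBRMsiHic5, where it fell by 0.92 (adjusted p = 0.000405).

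**Figure D3:**
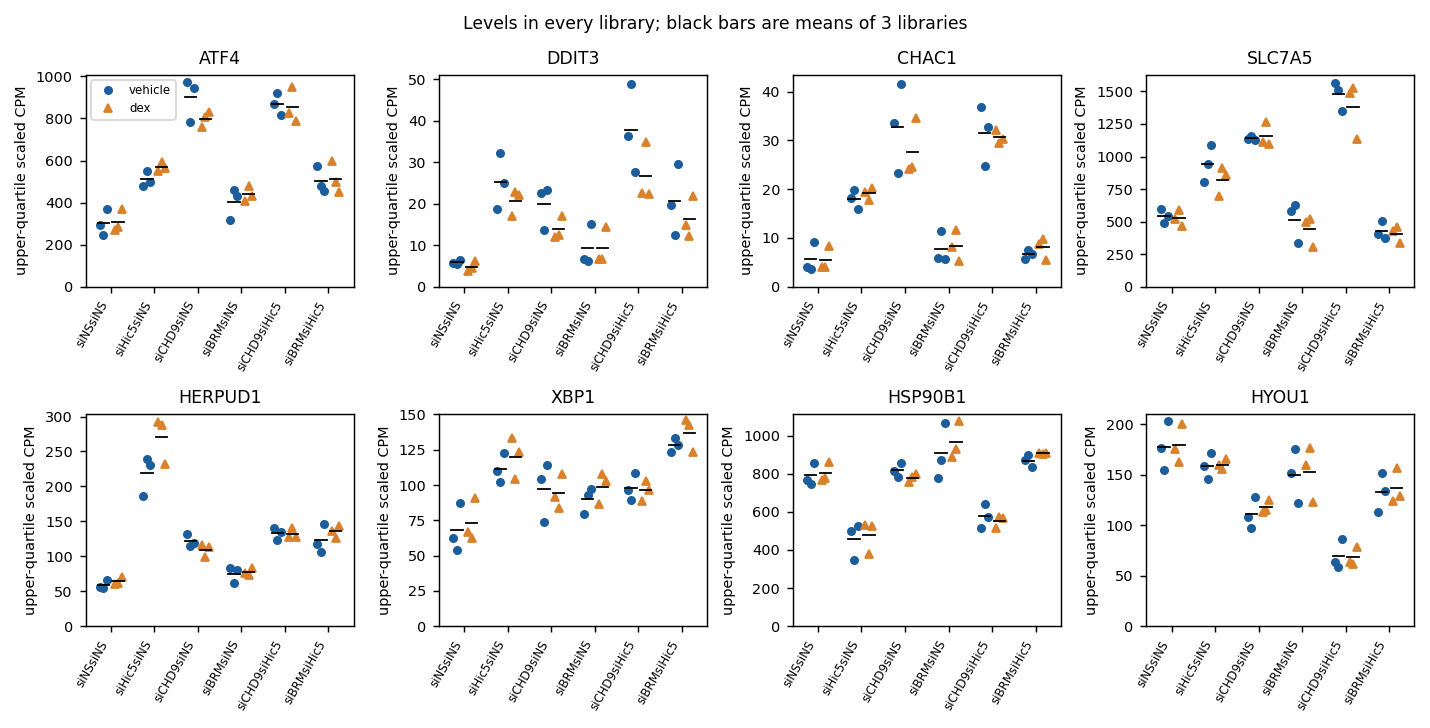
Scaled CPM of 8 members (linear vertical axes from 0) in every library by siRNA condition, with vehicle as blue circles, dex as orange triangles and black bars for means of 3 libraries. SLC7A5 and CHAC1 stand high in 3 siRNA conditions and near the siNSsiNS level with siBRMsiHic5, and HSP90B1 is lowest with siHic5siNS.

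In the ER branch each of the 3 sensors was called in some conditions. EIF2AK3 (PERK) was at 53.9, 46.1 and 45.9 CPM in the control and 75.8, 91.2 and 91.2 CPM with siHic5siNS, all higher (0.82 ± 0.13, adjusted p = 1.27e-05). With siCHD9siNS it was at 37.2, 35.6 and 37.8 CPM, all lower (fell by 0.40, adjusted p = 0.0237), and it was not called in the libraries labelled siCHD9siHic5 (-0.02 ± 0.13) or with siBRMsiHic5 (0.24 ± 0.13). ATF6 was at 63.4, 65.3 and 68.9 CPM in the control and 119, 112 and 117 CPM with siBRMsiHic5, a rise of 0.81 ± 0.13 (adjusted p = 1.2e-05). It also rose with siHic5siNS (0.38, adjusted p = 0.0134) and had log2 changes of -0.10 and -0.26 in the 2 CHD9-labelled conditions, neither of them called. ERN1 (IRE1) was at 13.5, 13.1 and 10.1 CPM in the control and 20.8, 29.8 and 15.6 CPM in the libraries labelled siCHD9siHic5, a rise of 0.85 ± 0.28 (adjusted p = 0.0114), and it was called in no other condition in vehicle. XBP1, the mRNA that IRE1 splices, rose in all 4 conditions. It was at 62.5, 53.9 and 87.0 CPM in the control, 109.9, 102 and 123 CPM with siHic5siNS, 104, 73.7 and 114 CPM with siCHD9siNS, 96.1, 89.1 and 108 CPM in the libraries labelled siCHD9siHic5 and 124, 133 and 129 CPM with siBRMsiHic5. Its log2 changes were 0.72, 0.52, 0.53 and 0.92 (adjusted p = 0.000627, 0.0157, 0.00805 and 5.61e-05), and the siCHD9siNS libraries overlapped the control.

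HSPA5 (BiP), the main ER chaperone and the usual marker of the unfolded protein response, was called in no condition. It was at 561, 356 and 765 CPM in the control, a wide spread, and at 549, 339 and 572 CPM with siHic5siNS, 639.8, 416 and 792 CPM with siCHD9siNS, 503, 450.0 and 586 CPM in the libraries labelled siCHD9siHic5 and 515, 803 and 675 CPM with siBRMsiHic5. The log2 changes were -0.20, 0.14, -0.13 and 0.25, each with an SE of 0.24, and adjusted p of 0.416 to 0.707. With siBRMsiNS it was at 477, 727 and 568 CPM (0.08). The groups overlapped in each condition, and a change smaller than this spread was not detectable. HSP90B1 (GRP94), the ER member of the Hsp90 family, was at 769.7, 748 and 858 CPM in the control and 501, 348 and 524 CPM with siHic5siNS, all lower (fell by 0.79 ± 0.13, adjusted p = 1.84e-05). In the libraries labelled siCHD9siHic5 it was at 517, 639 and 575 CPM (fell by 0.46, adjusted p = 0.00501), and with siCHD9siNS and siBRMsiHic5 it overlapped the control.

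Other folding genes also fell in the libraries labelled siCHD9siHic5. HYOU1, an Hsp70-like chaperone, was at 176, 155 and 203 CPM in the control and 63.5, 58.1 and 86.1 CPM in those libraries (fell by 1.36 ± 0.16, adjusted p = 7.56e-08). With siCHD9siNS it was at 108, 97.5 and 128 CPM (fell by 0.68, adjusted p = 0.00162), and with siBRMsiHic5 it fell by 0.42 (adjusted p = 0.0272). PDIA4, a disulfide isomerase, was at 112, 101 and 133 CPM in the control and 71.5, 78.1 and 81.0 CPM in the libraries labelled siCHD9siHic5 (fell by 0.58, adjusted p = 0.000698). SDF2L1, part of an ER co-chaperone complex, was at 28.9, 25.5 and 44.5 CPM in the control and 12.5, 18.8 and 20.8 CPM in those libraries (fell by 0.92, adjusted p = 0.00138). Both also fell with siHic5siNS, by 0.43 and 0.73. With siBRMsiHic5 the called folding genes other than HYOU1 were higher. CALR (calreticulin), at 479.5, 396 and 669.5 CPM in the control, was at 806, 803 and 891 CPM (0.69 ± 0.18, adjusted p = 0.00204), and DNAJB9, CRELD2 and MANF rose by 0.50, 0.45 and 0.64. DNAJB9, an ER co-chaperone, rose with siHic5siNS (0.40) and fell in the libraries labelled siCHD9siHic5 (by 0.43).

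The degradation genes were led by HERPUD1, an ER membrane protein of ER-associated degradation. It was at 55.4, 54.5 and 66.2 CPM in the control and 187, 239 and 231 CPM with siHic5siNS, a 3.73-fold rise (1.90 ± 0.13, adjusted p = 2.36e-11). It was at 133, 114 and 119 CPM with siCHD9siNS, 140.2, 123 and 135 CPM in the libraries labelled siCHD9siHic5 and 117, 106 and 146 CPM with siBRMsiHic5, with log2 changes of 1.05, 1.18 and 1.07 (adjusted p = 9.04e-07, 2.23e-08 and 3.52e-07). No library of these 4 conditions overlapped the control. EDEM1, which delivers glycoproteins to degradation, rose with siHic5siNS, siBRMsiHic5 and the libraries labelled siCHD9siHic5 (0.82, 0.74 and 0.57), and SEL1L, the adaptor of the HRD1 ligase, was called in none of the 5 conditions.

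Some of these calls rested on single vehicle libraries. With siHic5siNS, PSAT1 lost its call without siNSsiNS replicate 1 (adjusted p = 0.0556), SDF2L1 without siNSsiNS replicate 3 (0.113), PDIA4 without that library or siHic5siNS replicate 2 (0.0754 and 0.0678), and DNAJB9 and ATF6 without siHic5siNS replicate 3 (0.0537 and 0.0725). With siCHD9siNS, PPP1R15A lost it without siNSsiNS replicate 1 (0.0544), EIF2AK3 without that library or siCHD9siNS replicate 1 or 2 (0.119, 0.0614 and 0.0641), and CEBPG and XBP1 each without siNSsiNS replicate 1 or 2 or siCHD9siNS replicate 1 or 3 (0.0742 to 0.153 and 0.0678 to 0.117). In the libraries labelled siCHD9siHic5 this held for MTHFD2 without siNSsiNS replicate 1 or siCHD9siHic5 replicate 3 (0.0746 and 0.0654), XBP1 without siNSsiNS replicate 2 (0.0726), EDEM1 without siCHD9siHic5 replicate 2 (0.128), and ERN1 without siCHD9siHic5 replicate 2 or siNSsiNS replicate 3 (0.11 and 0.056). With siBRMsiHic5 it held for PSAT1 without siNSsiNS replicate 1 or siBRMsiHic5 replicate 3 (0.0853 and 0.0807), EDEM1 without siBRMsiHic5 replicate 3 (0.054), MANF without siNSsiNS replicate 1 or 2 or siBRMsiHic5 replicate 3 (0.0604 to 0.128), HYOU1 without replicate 1 or 3 of either condition (0.0536 to 0.139), and CRELD2 without siNSsiNS replicate 1 or 2 or siBRMsiHic5 replicate 2 or 3 (0.0707 to 0.147). The other vehicle calls above held without any 1 library. With the replicate number as a block, which the correlations back for the 2 CHD9-labelled conditions, PSPH and CRELD2 were also called with siCHD9siNS (adjusted p = 0.0124 and 0.0335), and PSPH and ATF6 in the libraries labelled siCHD9siHic5 (0.0231 and 0.0204).

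With siBRMsiNS alone 1 of the 36 members was called in vehicle, below the share of all genes (4.25% rose and 2.19% fell). That count is no result about the members. The member called was ATF6, at 77.1, 79.6 and 111 CPM against 63.4, 65.3 and 68.9 CPM (0.44 ± 0.13, adjusted p = 0.0386). In the ATF4 branch edgeR called 0 of 20 genes, 6 had an unadjusted p under 0.05, and DESeq2 called 2. Of all 15179 tested genes 3909 had an unadjusted p under 0.05 and DESeq2 called 1494. The branch counts lay near these shares and are no result about the branch. The medians of the ATF4 and ER branches were 0.30 and 0.30 on the log2 scale, beside 0.04 for all genes. A higher mean was seen for 29 of the 36 members and for 8272 of all 15179 genes. ATF4 was at 317, 461 and 431 CPM (0.41 ± 0.15, adjusted p = 0.08), DDIT3 at 6.77, 6.32 and 15.03 CPM (0.67 ± 0.35) and PPP1R15A at 50.4, 51.7 and 63.3 CPM (0.73 ± 0.24, adjusted p = 0.061). All 3 PPP1R15A libraries lay above the control, and those of ATF4 overlapped it. Among the 7 members that were lower, DDIT4 changed most (-0.85, not called). Its levels of 84.9, 56.1 and 79.0 CPM all lay below the 127, 142 and 129 CPM of the control. The count of called members was 7 without siNSsiNS replicate 3 or without siBRMsiNS replicate 1, 2 without siBRMsiNS replicate 2, and 0 without siNSsiNS replicate 1 or 2 or siBRMsiNS replicate 3. Shares of all genes in those fits are not given here, so these counts are no result about the members. The median member stood 0.13 (ATF4 branch) and 0.18 (ER branch) above the siNSsiNS mean in siNSsiNS replicate 3, and 0.05 to 0.19 below it in replicates 1 and 2. RNA28S5 took 0.612%, 3.95% and 6.98% of the counts in the siBRMsiNS vehicle libraries and 0.434%, 0.430% and 5.46% in the siNSsiNS ones, and its part in these values was not tested.

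Other genes of the same pathways were counted by list, with up to 2 named genes of smallest p in each. Of all tested genes 25.9% rose and 27.2% fell with siHic5siNS, 15.7% and 16.5% with siCHD9siNS, 23.7% and 28.9% in the libraries labelled siCHD9siHic5, and 24.3% and 24.6% with siBRMsiHic5. Of 25 other ATF4 targets, 12 rose and 3 fell with siHic5siNS, 16 rose with siCHD9siNS, 13 rose and 4 fell in the libraries labelled siCHD9siHic5 and 6 rose and 2 fell with siBRMsiHic5. The 6 rises with siBRMsiHic5 lay near the share of all genes and are no result about the list. Examples are CTH, an enzyme of cysteine synthesis (1.74 with siHic5siNS, adjusted p = 2.1e-05), MTHFD1L, a mitochondrial folate enzyme (0.82 with siCHD9siNS, adjusted p = 8.99e-07) and SLC1A5, a glutamine importer (1.19 with siBRMsiHic5, adjusted p = 0.00035). All 11 aminoacyl-tRNA synthetases tested rose with siCHD9siNS (median 0.79), 10 in the libraries labelled siCHD9siHic5 (0.69), 6 with siBRMsiHic5 (0.29) and 3 with siHic5siNS (0.10). The 3 rises with siHic5siNS also lay near the share of all genes. GARS1, the glycine enzyme, rose by 1.07 with siCHD9siNS (adjusted p = 2.86e-07), and SARS1, the serine enzyme, rose by 1.67 in the libraries labelled siCHD9siHic5 (adjusted p = 5.67e-10) and by 1.08 with siHic5siNS (adjusted p = 5.87e-07). Of 14 genes for the eIF2 kinases and eIF2 machinery, 2 rose and 6 fell with siHic5siNS and 3 rose and 3 fell with siCHD9siNS, the latter near the share of all genes. EIF2S2, the beta subunit of eIF2, fell with siHic5siNS (-1.47, adjusted p = 4.63e-07) and rose with siCHD9siNS (1.03, adjusted p = 0.000156). EIF2AK4, the GCN2 kinase, rose in the libraries labelled siCHD9siHic5 (0.97, adjusted p = 7.45e-07).

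In the ER lists outside the members, 11 of 21 other ER folding genes rose and 2 fell with siBRMsiHic5, 13 of 21 genes for translocation and glycosylation rose, and 9 of 16 genes for ER-associated degradation rose and 1 fell, when 24.3% of all genes rose and 24.6% fell. ERO1A, an ER oxidase (1.58, adjusted p = 3.71e-05), SSR2, a subunit of the translocon-associated complex (0.94, adjusted p = 5.54e-07), and SELENOS, listed as VIMP (0.94, adjusted p = 3.79e-06), had among the smallest p. In the libraries labelled siCHD9siHic5, 4 of the 21 folding genes rose and 9 fell (all genes, 23.7% and 28.9%), with KDELR3, a receptor that returns ER proteins, at -2.03 (adjusted p = 1.68e-07). RPN2, a subunit of the glycosylation enzyme, fell there (-2.54, adjusted p = 3.14e-13) and with siCHD9siNS (-1.38, adjusted p = 4.4e-08). Among 7 other ER stress transducers 4 rose and 2 fell with siHic5siNS (all genes, 25.9% and 27.2%). MBTPS1, the protease that makes the initial cut in ATF6, rose by 1.23 (adjusted p = 1.81e-06) there and by 1.01 with siBRMsiHic5 (adjusted p = 3.94e-05).

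Against siHic5siNS in vehicle, the libraries labelled siCHD9siHic5 had 7 ATF4-branch genes higher and 2 lower, and 2 ER-branch genes higher and 5 lower, when 22% of all genes rose and 25.7% fell. With siBRMsiHic5, 3 ATF4-branch genes were higher and 8 lower, and 6 ER-branch genes were higher and 2 lower, when 25.2% of all genes rose and 24.2% fell. In both combinations the 16 and 19 called members of 36 lay near the share of all genes called in either direction, so the number of calls is no result about the members, and the values below describe single genes. The branch medians were 0.40 and -0.17 in the former and -0.31 and 0.25 in the latter, beside -0.04 and 0.02 for all genes. XPOT, at 139, 118 and 139 CPM with siHic5siNS, was at 274, 249 and 294 CPM in the libraries labelled siCHD9siHic5 (1.05 ± 0.14, adjusted p = 8.87e-07) and at 233, 249 and 237 CPM with siBRMsiHic5 (0.86 ± 0.14, 1.51e-05). PHGDH was higher in both by 1.11 and 0.98, and CEBPG was lower in both by 0.63 and 0.37.

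In other genes the 2 combinations lay on opposite sides of siHic5siNS, and they were not tested against each other. SLC7A5 was 0.64 in the libraries labelled siCHD9siHic5 and -1.14 with siBRMsiHic5 on the log2 scale against siHic5siNS (adjusted p = 0.00676 and 2.15e-05), and CHAC1 was 0.81 and -1.41 (0.0398 and 0.000929). DDIT4 went from 231, 272 and 144 CPM with siHic5siNS to 49.5, 54.0 and 41.7 CPM with siBRMsiHic5 (fell by 2.15 ± 0.32, adjusted p = 3.05e-06). ATF4 itself was higher by 0.77 in the libraries labelled siCHD9siHic5 (adjusted p = 9.66e-05) and had a change of -0.03 ± 0.15 with siBRMsiHic5. In the ER branch HSP90B1 rose from 501, 348 and 524 CPM to 874, 896 and 836 CPM with siBRMsiHic5 (0.92 ± 0.13, adjusted p = 2.5e-06), a range that overlaps siNSsiNS. HYOU1 went from 158, 146 and 171 CPM with siHic5siNS to 63.5, 58.1 and 86.1 CPM (fell by 1.195 ± 0.16) in the libraries labelled siCHD9siHic5 (adjusted p = 6.21e-07), and DNAJB9 fell there from 41.3, 39.2 and 45.7 CPM to 25.4, 23.3 and 22.4 CPM (by 0.83, adjusted p = 8.22e-06). HERPUD1 was lower in both combinations than with siHic5siNS, by 0.72 and 0.83 (adjusted p = 2.98e-05 and 5.01e-06). The CHAC1 rise lost its call without any 1 siHic5siNS library or without siCHD9siHic5 replicate 1 or 3 (adjusted p of 0.0581 to 0.132), and the other calls of this paragraph held without any 1 library.

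**Figure D4:**
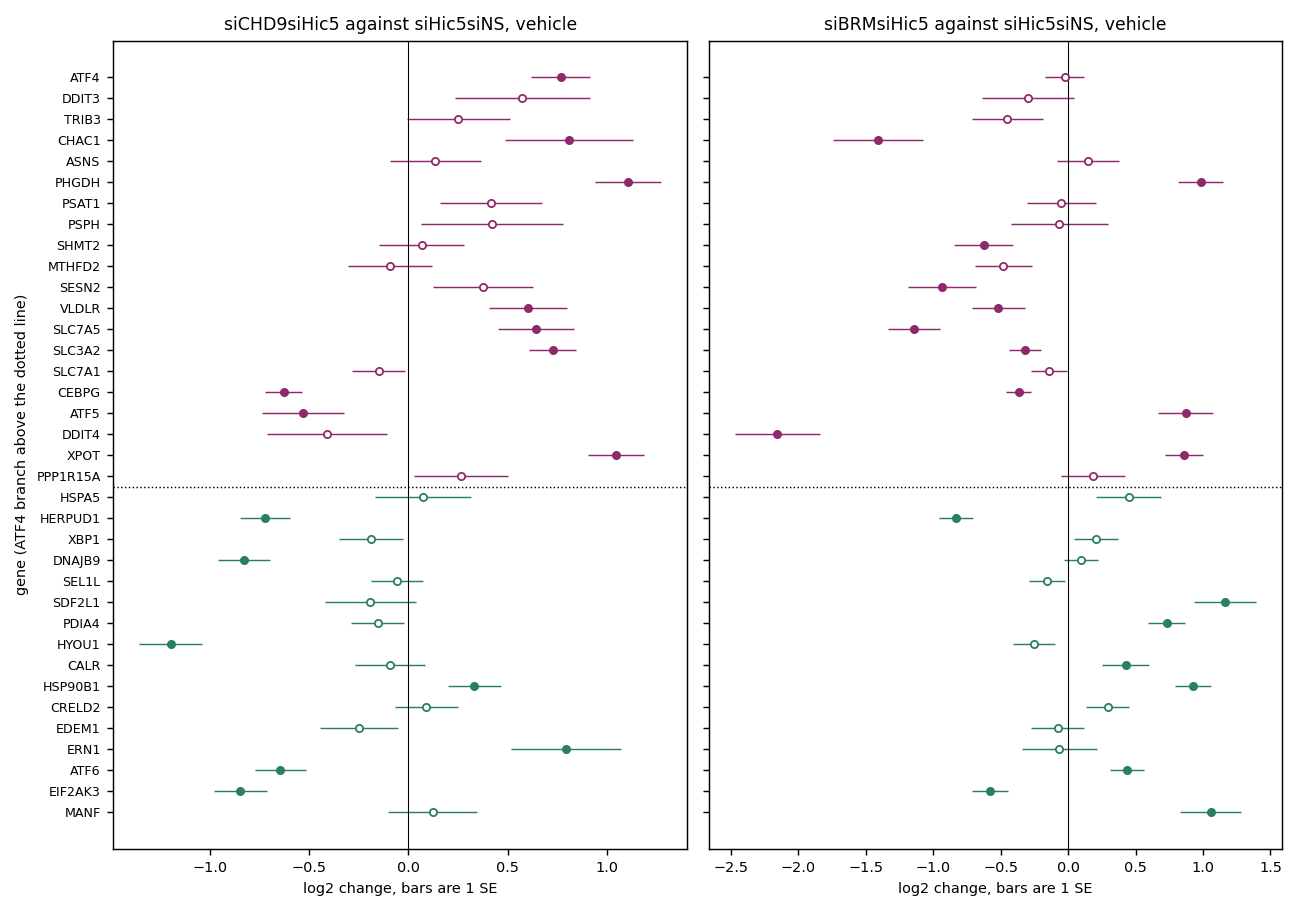
Log2 change of each member against siHic5siNS in vehicle (horizontal axes, which differ in range), with bars of 1 SE, for the libraries labelled siCHD9siHic5 (left) and for siBRMsiHic5 (right). Filled points were called. SLC7A5, CHAC1 and ATF6 lie on opposite sides of 0 in the 2 panels, while XPOT and PHGDH lie to the right in both.

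Most members called in vehicle were also called among the dex libraries. Vehicle and dex libraries of the same number varied together (correlations of 0.404 to 0.905). The dex comparisons are therefore no independent repeat of those in vehicle. Against siNSsiNS in dex, siHic5siNS had 14 ATF4-branch genes called, each higher, and 6 ER-branch genes higher and 3 lower (all genes, 25.2% rose and 28.5% fell). With siCHD9siNS these were 14 higher in the ATF4 branch and 1 higher and 2 lower in the ER branch (all genes, 7.96% and 10.7%). In the libraries labelled siCHD9siHic5 they were 15 higher and 1 lower, and 3 higher and 6 lower (all genes, 22.3% and 29.2%), and with siBRMsiHic5 10 higher and 2 lower, and 7 higher and 1 lower (all genes, 22.4% and 23.1%). Of the members called in vehicle, 22 of 22, 16 of 19, 24 of 25 and 19 of 21 were called in dex in the same direction, in that order of conditions. The like share over all genes was not counted, so this overlap is no result about the members. For the ER branch in dex, the counts of the 2 CHD9-labelled conditions lay near the shares of all genes. They are no result about the branch. DDIT4 was called with siHic5siNS in dex alone, at 298, 384 and 230.0 CPM against 179, 132 and 164 CPM (0.94 ± 0.30, adjusted p = 0.0106), and it lost that call without siNSsiNS or siHic5siNS replicate 2 (0.0529 and 0.0691). HERPUD1 was at 292, 288 and 232 CPM with siHic5siNS against 60.3, 61.6 and 70.1 CPM in dex, a 4.22-fold difference. ATF4 was at 758, 806 and 831 CPM with siCHD9siNS against 268, 282 and 369 CPM, a 2.60-fold difference. With the replicate block PSPH was also called in the libraries labelled siCHD9siHic5 (0.64, adjusted p = 0.0425).

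The members named above had these levels in dex. DDIT3 was at 3.72, 4.52 and 6.23 CPM with siNSsiNS, 17.1, 22.8 and 22.02 CPM with siHic5siNS, 11.9, 12.6 and 17.1 CPM with siCHD9siNS, 22.7, 35.0 and 22.3 CPM in the libraries labelled siCHD9siHic5 and 14.9, 12.3 and 21.9 CPM with siBRMsiHic5. PPP1R15A was at 23.4, 30.6 and 29.3 CPM with siNSsiNS, 86.8, 128 and 108 CPM with siHic5siNS, 101, 162 and 82.8 CPM in the libraries labelled siCHD9siHic5 and 102, 83.2 and 120.0 CPM with siBRMsiHic5. TRIB3 was at 16.6, 16.0 and 21.9 CPM with siNSsiNS and 47.4, 71.9 and 74.0 CPM with siHic5siNS, and CEBPG at 46.5, 51.6 and 49.2 and 109.7, 95.7 and 94.9 CPM. In each of these 4 genes the groups given did not overlap with siNSsiNS. CHAC1 was at 4.14, 4.12 and 8.44 CPM with siNSsiNS and 24.1, 24.4 and 34.5 CPM with siCHD9siNS. SLC3A2 was at 205, 214 and 197 CPM with siNSsiNS, 429, 438 and 446 CPM with siCHD9siNS and 490.4, 492 and 421 CPM in the libraries labelled siCHD9siHic5. SLC7A5 was at 519, 591 and 464 CPM with siNSsiNS and 1489, 1523 and 1134 CPM in the libraries labelled siCHD9siHic5. These transport and glutathione genes stood above siNSsiNS in every library given, as in vehicle. ASNS was at 47.9, 51.0 and 72.0 CPM with siNSsiNS and 118, 113 and 172 CPM with siCHD9siNS, a log2 difference of 1.23 ± 0.23.

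In the ER branch XBP1 was at 66.8, 62.2 and 90.9 CPM with siNSsiNS, 133, 104 and 123 CPM with siHic5siNS, 91.3, 83.7 and 108 CPM with siCHD9siNS and 146, 142 and 123 CPM with siBRMsiHic5. HSPA5 was at 542, 479 and 694 CPM with siNSsiNS and 562, 401 and 519 CPM with siHic5siNS. XBP1 rose with siHic5siNS and siBRMsiHic5 (0.71 and 0.90) and was not called with siCHD9siNS (0.37, adjusted p = 0.119), and HSPA5 was called nowhere. HSP90B1 was at 766, 778 and 864 CPM with siNSsiNS and 532, 378 and 524 CPM with siHic5siNS. HYOU1 was at 175, 162 and 200.3 CPM with siNSsiNS, 113, 115 and 125 CPM with siCHD9siNS and 64.0, 61.6 and 78.7 CPM in the libraries labelled siCHD9siHic5. PDIA4 was at 113, 107 and 133 and 71.8, 75.8 and 79.7 CPM, and SDF2L1 at 31.5, 26.1 and 47.3 and 13.4, 18.2 and 19.6 CPM, with siNSsiNS and in the libraries labelled siCHD9siHic5. All 4 of these chaperone genes fell in the groups given, by 0.75, 0.60 and 1.40, 0.63 and 1.03. CALR was at 461, 424 and 651 CPM with siNSsiNS and 832, 824 and 889 CPM with siBRMsiHic5, and ATF6 was at 64.7, 65.2 and 71.3 and 118, 117 and 114 CPM, rises of 0.73 and 0.80. EIF2AK3 was at 59.4, 64.3 and 47.4 CPM with siNSsiNS and 108, 125 and 110.0 CPM with siHic5siNS (1.00 ± 0.13).

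With siBRMsiNS in dex 3 members rose (all genes, 7.08% rose and 4.77% fell). The members called were ATF4, at 409.7, 478 and 432 CPM against 268, 282 and 369 CPM (0.52 ± 0.15, adjusted p = 0.023), PHGDH, at 120.4, 139 and 180.0 CPM against 86.6, 99.7 and 124 CPM (0.50 ± 0.16, 0.0446), and PPP1R15A, at 44.8, 47.9 and 63.5 CPM against 23.4, 30.6 and 29.3 CPM (0.91 ± 0.24, 0.0174). The PHGDH libraries overlapped the control and the others did not. In the ER branch edgeR called 0 of 16 genes, 8 had an unadjusted p under 0.05, and DESeq2 called 1. Shares of all genes for the latter 2 counts are not given here, so they are no result about the branch. ATF6, called in vehicle, had a log2 change of 0.36 ± 0.13 (adjusted p = 0.0622). The count of called members was 10 without siNSsiNS replicate 3 or siBRMsiNS replicate 1, 1 without siBRMsiNS replicate 2, and 0 without siNSsiNS replicate 1 or 2 or siBRMsiNS replicate 3. Shares of all genes in those fits are not given here either. RNA28S5 took 0.622%, 1.92% and 7.51% of the counts in the siBRMsiNS dex libraries and 0.477%, 0.671% and 0.722% in the siNSsiNS ones, and its part was not tested.

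Dex itself changed few members. In the fit without a block edgeR called 0 of 36 members in each of the 6 siRNA conditions, with 0, 2, 1, 0, 0 and 2 members at an unadjusted p under 0.05 in the order siNSsiNS, siHic5siNS, siCHD9siNS, siBRMsiNS, siCHD9siHic5 and siBRMsiHic5, and DESeq2 also called 0. Of all genes 0.343%, 0.876%, 0.962%, 0.382%, 0.455% and 0.501% were called. Vehicle and dex libraries of the same number varied together (correlations of 0.404 to 0.905), and with each such pair as a block 0, 3, 8, 1, 1 and 3 members were called, when 2.5%, 8.92%, 24.1%, 3.89%, 4.74% and 5.96% of all genes were. These shares of the members lay below or near those of all genes and are no result about the members. The values in the following sentences come from that blocked fit.

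EIF2AK3 rose with dex in 3 conditions. With siHic5siNS it went from 75.8, 91.2 and 91.2 CPM in vehicle to 108, 125 and 110.0 CPM in dex (0.41 ± 0.08, adjusted p = 0.00286), higher in 3 of 3 pairs. With siCHD9siNS it went from 37.2, 35.6 and 37.8 to 46.6, 46.4 and 44.2 CPM (0.31, adjusted p = 0.0118) and with siBRMsiHic5 from 65.6, 47.3 and 60.02 to 74.4, 66.2 and 80.3 CPM (0.36, adjusted p = 0.0108). In the siNSsiNS control EIF2AK3 went from 53.9, 46.1 and 45.9 to 59.4, 64.3 and 47.4 CPM, also higher in 3 of 3 pairs but not called. DDIT4, known as a glucocorticoid-induced gene in many cells, rose with siHic5siNS (231, 272 and 144 to 298, 384 and 230.0 CPM, 0.51 ± 0.14, adjusted p = 0.0223). It also rose with siBRMsiNS (84.9, 56.1 and 79.0 to 146, 76.8 and 99.6 CPM, 0.52, 0.041) and siBRMsiHic5 (49.5, 54.0 and 41.7 to 95.1, 72.6 and 74.0 CPM, 0.73, 0.00373). With siNSsiNS it went from 127, 142 and 129 to 179, 132 and 164 CPM, higher in 2 of 3 pairs and not called (0.25 ± 0.14, adjusted p = 0.506). HERPUD1 rose with siHic5siNS (187, 239 and 231 to 292, 288 and 232 CPM, 0.30, adjusted p = 0.0482).

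The calls with a lower level in dex were all ATF4-branch genes. DDIT3 fell with siCHD9siNS from 22.7, 13.8 and 23.3 to 11.9, 12.6 and 17.1 CPM (by 0.51 ± 0.12, adjusted p = 0.00708) and in the libraries labelled siCHD9siHic5 from 36.4, 48.9 and 27.8 to 22.7, 35.0 and 22.3 CPM (by 0.49, adjusted p = 0.0194). In the siNSsiNS control DDIT3 went from 5.65, 5.53 and 6.52 to 3.72, 4.52 and 6.23 CPM, also lower in each pair but not called. PPP1R15A fell with siCHD9siNS and with siBRMsiHic5, there from 121, 92.6 and 168 to 102, 83.2 and 120.0 CPM (by 0.29 and 0.30, adjusted p = 0.0119 and 0.0259). With siCHD9siNS PHGDH went from 245, 273 and 295 to 188, 214 and 246 CPM (fell by 0.33 ± 0.06, adjusted p = 0.000804), ATF5 and SHMT2 fell by 0.26 and 0.21, and SEL1L (from 192, 181 and 212 to 240.2, 204 and 240.1 CPM) and ERN1 rose by 0.23 and 0.52. Without any 1 pair, EIF2AK3 with siHic5siNS and PHGDH with siCHD9siNS kept their calls (adjusted p of at most 0.0389 and 0.019). Every other blocked call was lost without at least 1 pair: those of siCHD9siNS other than PHGDH without pair 1 (ERN1 and EIF2AK3 also without pair 2, SHMT2 and ATF5 also without pair 3), HERPUD1 without pair 1 or 2, DDIT4 with siHic5siNS or siBRMsiNS without any pair and with siBRMsiHic5 without pair 1, DDIT3 in the libraries labelled siCHD9siHic5 without pair 1 or 2, and with siBRMsiHic5 EIF2AK3 without pair 2 or 3 and PPP1R15A without pair 1 or 3 (adjusted p of 0.0502 to 0.484).

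**Figure D5:**
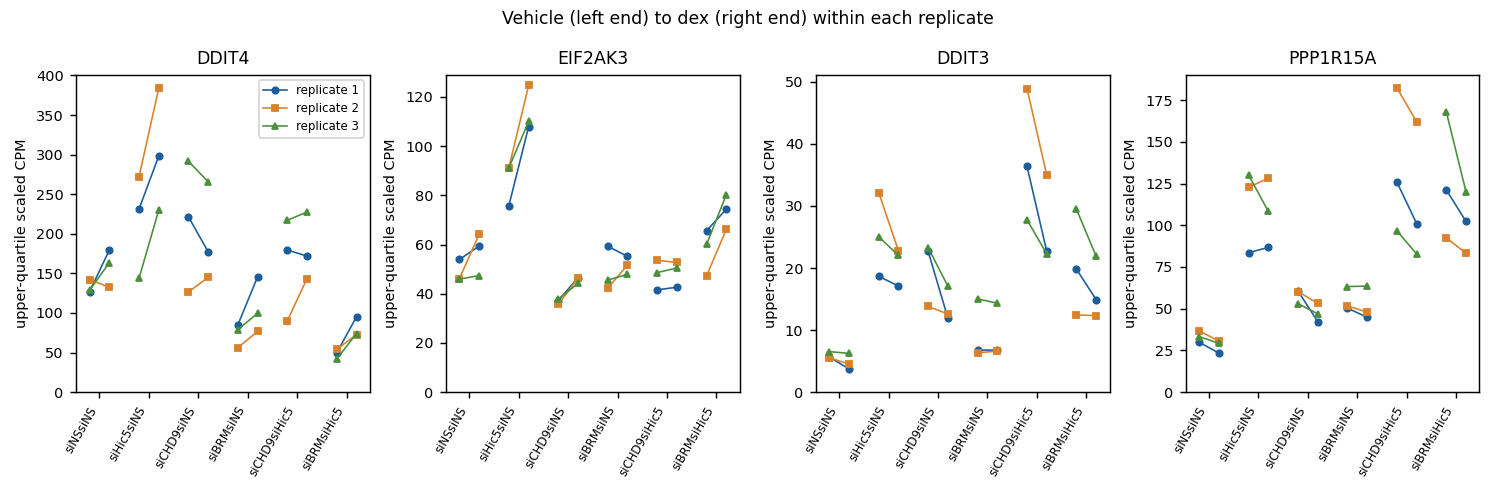
Scaled CPM of 4 members (linear vertical axes from 0) in vehicle (left end of each line) and dex (right end) for each replicate, by siRNA condition. DDIT4 lines go up in all 3 replicates with siHic5siNS, siBRMsiNS and siBRMsiHic5. EIF2AK3 lines go up in all 3 with siNSsiNS, siHic5siNS, siCHD9siNS and siBRMsiHic5. DDIT3 lines go down in all 3 in each condition but siBRMsiNS.

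Whether a siRNA changed the dex response of a member was tested as the difference of its dex response from that with siNSsiNS. No member was called for any of the 5 siRNA conditions by edgeR without the block (0 at an unadjusted p under 0.05), by DESeq2 or with the block. Of all genes, 0% (siHic5siNS), 0.00659% (siCHD9siNS), 0% (siBRMsiNS), 0% (siCHD9siHic5) and 0% (siBRMsiHic5) were called without the block, and 0.184%, 4.05%, 0%, 0.0132% and 0% with it. The smallest adjusted p of a member was that of PHGDH with siCHD9siNS (-0.28 ± 0.08, adjusted p = 0.0574, blocked fit). The EIF2AK3 and DDIT4 responses above are thus not shown to differ from that with siNSsiNS: their differences with siHic5siNS were 0.19 ± 0.11 and 0.27 ± 0.19.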

How the data were processed

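Per the submitters' processing notes, reads were aligned with TopHat2 2.1.1 to GRCh38 and analysed with edgeR. Which counter and gene annotation they used is not given in the sources used here. Deposited by the authors were whole-number counts per gene, 1 column for each of the 36 libraries and 0 columns of other samples, with 15186 genes listed by Entrez ID and symbol. Near-identical gene copies could share reads, since the counting rule is not known.

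Counts were tested with edgeR 4.0.16 in R 4.3.3 (quasi-likelihood test, upper-quartile factors, 12 group means over all 36 libraries, 24 residual degrees of freedom). The filter left 15179 genes, those that passed a scaled CPM of 1 in 3 libraries or more, and p-values were adjusted by Benjamini-Hochberg over all of them. The SE of a log2 change is its size divided by the square root of the F statistic. The test was checked on simulated data. Alternatives were TMM scaling, no filter, DESeq2 1.42.0, a replicate block and leaving out each library, and, chosen after the data were seen, leaving out each vehicle and dex pair of the blocked fit.

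Same-numbered vehicle and dex libraries of 1 siRNA condition deviated together in 18 of 18 pairs (correlations of 0.404 to 0.905). Across siRNA conditions every pair was above 0.1 in 5 of 12 comparisons, all with a CHD9-labelled condition. Replicates are labelled as biological and made on different days, and the p-values measure the spread between them. The fit without a block counts same-numbered vehicle and dex libraries as separate. Its 24 residual degrees of freedom are then too many, and p-values between siRNA conditions may be too small. The closest pair of replicates in a group differed by more than sampling noise (chi-square per degree of freedom 9.41).

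The members and the pathway lists were chosen with earlier results of these data known. Values are given in every library for up to 4 called members per branch with the smallest p in each comparison with siNSsiNS in vehicle, for up to 2 in the other comparisons, and for ATF4, DDIT3, ASNS, TRIB3, HSPA5, XBP1, ERN1, ATF6 and EIF2AK3 at least in the conditions where they were called. From each pathway list up to 2 called genes with the smallest p could be named.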

Additional observations from a re-analysis of the deposited data

How the results depend on the processing

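The count of called members moved with the setting in the comparisons with few calls. With siBRMsiNS in vehicle it was 1, and 3 by DESeq2, 9 with the replicate block and 0 to 7 when 1 library was left out. Of all 15179 genes DESeq2 called 1494 there, and the fit with the block called 2232. With siBRMsiNS in dex it was 3, and 5, 12 and 0 to 10 under the same settings. The dex responses had 0 called members without a block and 3 (siHic5siNS), 8 (siCHD9siNS), 1 (siBRMsiNS), 1 (siCHD9siHic5) and 3 (siBRMsiHic5) with the replicate block. When a vehicle and dex pair was left out of the blocked fit, these counts were 1 to 3 (siHic5siNS), 1 to 8 (siCHD9siNS), 0 to 1 (siBRMsiNS and siCHD9siHic5) and 1 to 2 (siBRMsiHic5). In the other comparisons between siRNA conditions the count stayed within 1.5 times under TMM, no filter, DESeq2, the block and each library left out, and for the differences of dex responses it was 0 under each of these. Numbers shared across siRNA conditions without a CHD9 label do not pair the libraries, and the cause of the larger counts with the block for siBRMsiNS was not tested. For the called members with the smallest p per branch and comparison (up to 4 in vehicle against siNSsiNS, up to 2 against siHic5siNS), 400 alternative values kept direction and side of the threshold, 10 lost the call when 1 library was left out (XBP1 and EIF2AK3 with siCHD9siNS, ATF6 with siBRMsiNS), and 0 turned direction. Lost calls with larger p are given with the results for the vehicle comparisons with siNSsiNS, and only in part for the others. Against siHic5siNS, CALR with siBRMsiHic5 lost its call without any 1 library (adjusted p of 0.0558 to 0.15). In dex, SHMT2 and DNAJB9 with siCHD9siNS and MTHFD2 in the libraries labelled siCHD9siHic5 each lost theirs in 5 of the fits without 1 library. More calls of these comparisons were lost in fewer such fits, and they are not all named. TMM scaling moved the median of all genes by at most 0.066 on the log2 scale. The libraries held 27442282 to 47148257 counts, and each group had 3 of them, so small changes of variable members such as HSPA5 could not be called.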
